A study of Homo sapiens with 3 samples.

Results

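The immediate early genes FOS, FOSB, JUN, JUNB, EGR1, ATF3, DUSP1, IER2, KLF6 and NR4A1 were followed in stem cell-derived islets. The cells were of HUES8, an established line of human embryonic stem cells. The genes were found by name in the gene lists deposited with the counts, all 10 of them among 36601 genes. The rule that finds them uses no measured value, but the list was drawn up with earlier results of these data known. A magnetic antibody sort on CD49a, the integrin subunit encoded by ITGA1, preceded the measurement by 7 days. Each of the 3 groups had 1 library: CD49a-positive cells, CD49a-negative cells and unsorted cells. All groups shared the line, the differentiation into islet cells, the culture as new aggregates and the dispersal with TrypLE, a trypsin-like enzyme, before droplet capture on the 10x Chromium. No undispersed sample was analysed here. With 1 library per group, a difference between groups has no replicate check, and every library interval given is a 95% interval of counting error only.

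Immediate early genes are switched on within minutes of a stimulus without the need for new protein, through kinase cascades that act on factors already bound at their promoters. FOS, FOSB, JUN and JUNB encode subunits of the AP-1 transcription factor, EGR1 a zinc finger factor, ATF3 a stress-induced factor of the ATF/CREB family, KLF6 a Kruppel-like factor, NR4A1 an orphan nuclear receptor, IER2 a short-lived nuclear protein, and DUSP1 a phosphatase that switches mitogen-activated protein kinases off again. In islet cells they are known to respond to glucose, to membrane depolarisation and to cAMP, and in dispersed tissue they are also known to respond to enzyme and handling.

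Most of the genes are short, and their promoter windows were searched for a chosen set of motifs. On GRCh38 (GENCODE release 29), 8 of the 10 genes were shorter than the median protein-coding gene of 26688 bp, and their own median was 4160 bp. The exceptions were ATF3 at 55444 bp and NR4A1 at 36676 bp. The RefSeq promoter windows (GRCh38.p14, 250 bases before to 50 after each start) were found for all 10 members. The windows of the genes whose levels are described most closely are printed here 5′ to 3′ on the strand of the gene, with motif matches in capitals. FOS lies on the plus strand at chr14:75278578-75278877, JUNB on the plus strand at chr19:12791236-12791535, EGR1 on the plus strand at chr5:138465229-138465528 and DUSP1 on the minus strand at chr5:172771146-172771445.
FOS: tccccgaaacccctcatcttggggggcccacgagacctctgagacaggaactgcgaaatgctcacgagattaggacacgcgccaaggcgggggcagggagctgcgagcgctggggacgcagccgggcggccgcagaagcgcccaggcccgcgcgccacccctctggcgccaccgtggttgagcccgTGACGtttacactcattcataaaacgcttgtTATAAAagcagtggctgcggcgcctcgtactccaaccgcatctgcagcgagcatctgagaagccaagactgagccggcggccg
JUNB: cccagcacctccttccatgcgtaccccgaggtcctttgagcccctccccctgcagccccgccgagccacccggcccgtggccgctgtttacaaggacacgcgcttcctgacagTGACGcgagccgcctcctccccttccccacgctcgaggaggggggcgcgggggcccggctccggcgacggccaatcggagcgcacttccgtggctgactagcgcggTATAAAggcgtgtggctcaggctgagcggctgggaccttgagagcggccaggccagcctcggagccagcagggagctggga
EGR1: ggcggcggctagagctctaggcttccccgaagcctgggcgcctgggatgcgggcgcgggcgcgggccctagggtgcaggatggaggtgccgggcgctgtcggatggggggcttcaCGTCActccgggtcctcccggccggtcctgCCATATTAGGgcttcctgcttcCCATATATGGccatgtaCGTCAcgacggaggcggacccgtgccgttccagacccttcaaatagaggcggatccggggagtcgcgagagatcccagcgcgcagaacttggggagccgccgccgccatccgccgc
DUSP1: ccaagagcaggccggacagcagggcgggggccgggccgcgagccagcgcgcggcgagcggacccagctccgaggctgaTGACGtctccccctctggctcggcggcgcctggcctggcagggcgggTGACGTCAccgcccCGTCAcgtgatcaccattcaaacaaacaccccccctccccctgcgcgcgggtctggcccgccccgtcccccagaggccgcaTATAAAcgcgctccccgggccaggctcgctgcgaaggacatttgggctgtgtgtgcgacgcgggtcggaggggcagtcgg
The capitals mark the core of the cAMP response element (TGACG, or CGTCA on the other strand), the full palindrome TGACGTCA in DUSP1, the TATA box (TATAAA) in FOS, JUNB and DUSP1, and a pair of CArG boxes, the site of serum response factor, in EGR1. The TGACG core was searched on both strands, lies inside the full palindrome and was found in 7 of 10 members (FOS, FOSB, JUN, JUNB, EGR1, DUSP1 and IER2), against 24.6% of 35116 promoters. TATAAA was found in 4 members (FOS, FOSB, JUNB and DUSP1), against 11.5% of promoters, and the full palindrome in 1, against 1.85%. CArG boxes were found in EGR1 alone among the members, against 1.29% of promoters. The NR4A site AAAGGTCA was found in ATF3 alone, against 1.22% of promoters. The AP-1 site TGANTCA was found in none of the members, against 7.71% of promoters, and the EGR site GCGTGGGCG in none, against 0.795%. These are matches of letters in a fixed window. Each member was read in 1 window, the first listed, so any further start of a member was not searched. The background counted every listed window, also where a gene had more than 1.

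The libraries held 127119509 (CD49a-positive), 88397368 (CD49a-negative) and 114479071 (unsorted) UMIs, where a UMI is 1 captured RNA molecule. After removal of barcodes with under 1000 genes or over 20% mitochondrial UMIs, 2394, 1976 and 2256 cells remained. The filter removed 46.9% of CD49a-positive barcodes, against 23.0% of CD49a-negative and 19.7% of unsorted barcodes, so the CD49a-positive library stood apart in its barcodes of few genes. Libraries shared 2 to 6 cell barcodes pairwise. Cells were classed by their own hormone or enzyme UMIs per 1000000 UMIs (CPM), with cuts at 30000 for INS, 20000 for GCG, 10000 for SST and 200 for TPH1. Cells over exactly 1 cut formed the INS-rich (beta hormone), GCG-rich (alpha hormone), SST-rich (delta hormone) and TPH1-rich (serotonin synthesis) classes. There were 88, 415 and 400 TPH1-rich, 213, 437 and 377 GCG-rich, 45, 106 and 86 SST-rich, and 1454, 344 and 667 INS-rich cells in the CD49a-positive, CD49a-negative and unsorted libraries. None of the members entered this rule. The other markers went with the class name in GCG-rich and TPH1-rich cells. Over INS-rich cells, all 6 alpha markers were called higher in GCG-rich cells and all 6 enterochromaffin markers in TPH1-rich cells. SST-rich cells were less distinct. Of 4 delta markers, 3 were called higher and 1 lower in SST-rich cells, with the same counts in GCG-rich cells. Of 6 alpha markers, 3 were called higher in SST-rich cells too. Each list includes the gene behind the cut. The defining markers of acinar, mesenchymal, endothelial and pluripotent cells summed to at most 7.09 CPM in any class and library, with several of them at 0. Other lists were higher: blood markers summed to at most 30.4 CPM, duct markers to 39.9 to 121 CPM and neural markers to 581 to 1343 CPM.

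GCG-rich cells carried the highest levels of nearly every member, and TPH1-rich cells the lowest of FOS, JUNB, EGR1 and IER2. Summed over the 10 genes, GCG-rich cells held 1105, 1216 and 979 CPM in the CD49a-positive, CD49a-negative and unsorted libraries, against 626, 568 and 589.7 CPM in INS-rich cells. SST-rich cells held 747, 857 and 589 CPM. TPH1-rich cells held 356, 547 and 305 CPM. The GCG-rich sums lay above those of every other class in all 3 libraries, and the TPH1-rich sums below. The SST-rich sums of the CD49a-positive and CD49a-negative libraries lay above the INS-rich ones, whereas the unsorted SST-rich and INS-rich sums differed by less than their counting intervals.

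**Figure D1:**
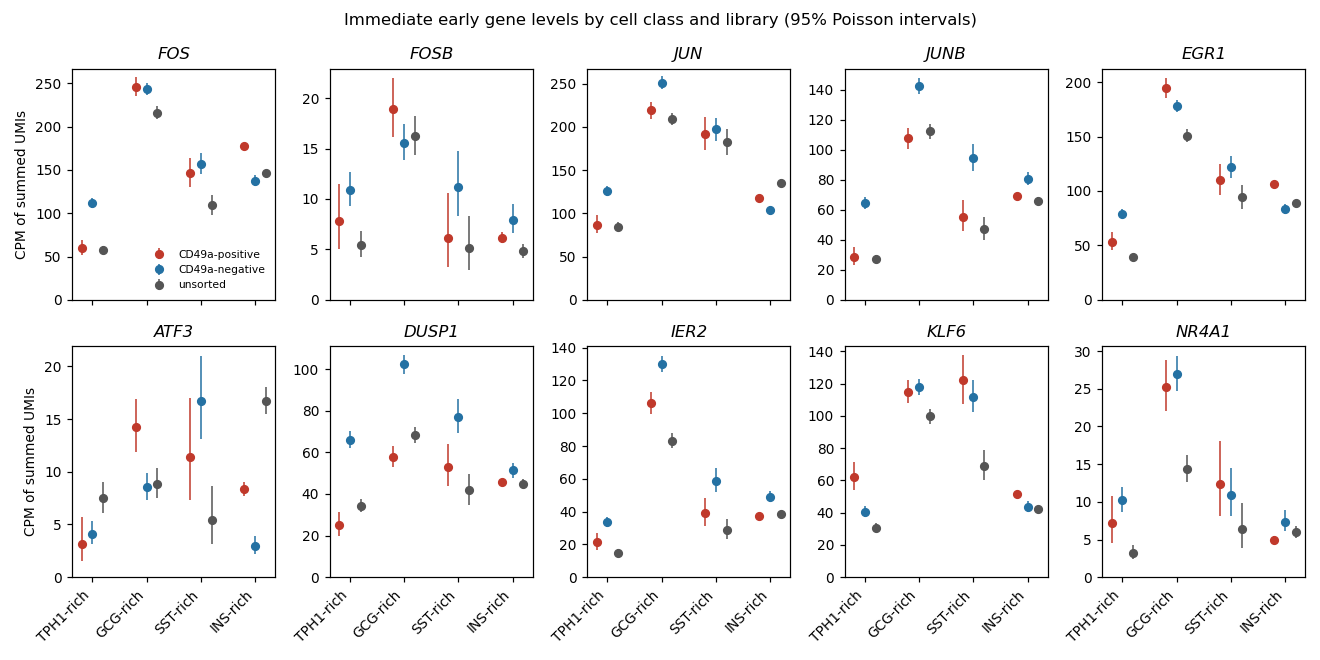
CPM of summed UMIs (vertical axes, linear, a separate scale per gene) of each immediate early gene in 4 cell classes; points are the 3 libraries and lines 95% exact Poisson intervals. GCG-rich cells lie above INS-rich cells in every library for all genes but ATF3.

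The class differences were tested with edgeR's quasi-likelihood test on UMIs summed per library and class, with the library as a block and Benjamini-Hochberg adjustment over 19042 genes; a gene is called at an adjusted p of 0.05 or less. All 10 members passed the filter on low counts. In GCG-rich over INS-rich cells 9 of 10 members were called higher and 0 lower, where 15.9% of all genes were called higher, 17.1% lower and 33% in either direction. The members' median log2 fold change was 0.87, against 0.00 over all genes. In 9 members the lowest of the 3 GCG-rich values lay above the highest of the 3 INS-rich values. The share of all genes that did so was not counted. Proliferation markers moved with this contrast: all 4 were called higher, and they summed to 66.2, 51.9 and 60.3 CPM in GCG-rich cells, against 12.5, 8.27 and 22.2 CPM in INS-rich cells, and their part in the result was not tested. Depth also moved with the classes, with a median of 38359, 39020.0 and 39971 UMIs per GCG-rich cell, 29742, 30076 and 30494 per TPH1-rich cell and 53086, 42438 and 55877 per INS-rich cell of the CD49a-positive, CD49a-negative and unsorted libraries. With every cell thinned to 10000 UMIs, 9 members were again called higher in GCG-rich cells. Thinning gives the cells equal weight and leaves the expected share of member UMIs in each cell unchanged. The part of depth was therefore not tested. The 3 libraries differ in their sort, and nothing says that they came from separate cultures. With the library as a block, the p-values measure how far the class differences varied from library to library, estimated over all 4 classes. That spread may be technical.

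Among the AP-1 subunits, FOS had 246, 243 and 216 CPM in GCG-rich cells (CD49a-positive, CD49a-negative and unsorted), against 178, 138 and 146 CPM in INS-rich cells. The classes did not overlap, and the log2 fold change was 0.57 ± 0.16 (SE) with an adjusted p of 0.012 (edgeR's quasi-likelihood test, Benjamini-Hochberg). Without the unsorted library the FOS call was lost, at a log2 fold change of 0.59 and an edgeR adjusted p of 0.086. JUN, the partner of FOS in AP-1, had 219, 251 and 209 CPM in GCG-rich cells, against 118, 104 and 136 CPM in INS-rich cells. It was higher in every library, by 0.88 ± 0.13 (log2, SE; edgeR adjusted p = 6.6e-05). JUNB, which forms less active dimers than JUN, rose by 0.70 ± 0.14, with 108, 143 and 112 CPM in GCG-rich and 69.2, 80.8 and 66.0 CPM in INS-rich cells. FOSB, known for long-lived forms in stimulated neurons, was rare, at 18.9, 15.6 and 16.2 CPM in GCG-rich and 6.17, 7.95 and 4.81 CPM in INS-rich cells. Its difference was nonetheless among the largest of the members, at 1.42 ± 0.16 (edgeR adjusted p = 4.4e-06).

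Of the other transcription factors, NR4A1 differed most. It had 25.2, 27.0 and 14.3 CPM in GCG-rich cells and 4.92, 7.38 and 5.96 CPM in INS-rich cells, a log2 fold change of 1.79 ± 0.19 (edgeR adjusted p = 1.6e-06). The unsorted GCG-rich value was the low one, and still lay above all INS-rich values. KLF6 had 115, 118 and 99.7 CPM in GCG-rich and 51.6, 43.6 and 42.3 CPM in INS-rich cells, and rose by 1.24 ± 0.12. EGR1 rose by 0.86 ± 0.14, with 195, 178 and 151 CPM in GCG-rich and 106, 83.2 and 88.7 CPM in INS-rich cells. IER2 had 106, 130 and 83.3 CPM in GCG-rich cells, against 37.6, 49.1 and 38.6 CPM in INS-rich cells, a rise of 1.29 ± 0.11 and the smallest adjusted p of the members (2.6e-07, edgeR). DUSP1, the feedback phosphatase, had 57.9, 102 and 68.3 CPM in GCG-rich and 45.7, 51.4 and 44.9 CPM in INS-rich cells, with the CD49a-negative GCG-rich value standing highest. Its log2 fold change was 0.59 ± 0.14 (edgeR adjusted p = 0.0044), and without the unsorted library the call was lost at an adjusted p of 0.051.

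ATF3 was the exception, and its UMIs came from few cells. It had 14.2, 8.51 and 8.83 CPM in GCG-rich cells, against 8.32, 2.95 and 16.7 CPM in INS-rich cells, and the classes overlapped (log2 fold change 0.15 ± 0.37, edgeR adjusted p = 0.80). In unsorted INS-rich cells, 5 of 667 cells held 80.3% of its 670 UMIs, the highest 342 of them, and without these 5 cells the level was 3.29 CPM. In CD49a-positive INS-rich cells 5 of 1454 cells held 327 of the 654 UMIs. The gene was at 0 UMIs in 584 of the 667 unsorted and 1286 of the 1454 CD49a-positive INS-rich cells. In unsorted GCG-rich cells 5 of 377 cells held 27.3% of the ATF3 UMIs. Uneven counts were not confined to ATF3. In INS-rich cells the top 5% of cells held 70.3%, 67.8% and 69.0% of NR4A1 UMIs (CD49a-positive, CD49a-negative and unsorted). In GCG-rich cells the top 5% held 41.0%, 38.0% and 40.3%. In unsorted TPH1-rich cells the top 5% held 61.3% of FOS and 97.4% of FOSB UMIs. The highest unsorted INS-rich cell held 758 of 5436 JUN UMIs.

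**Figure D2:**
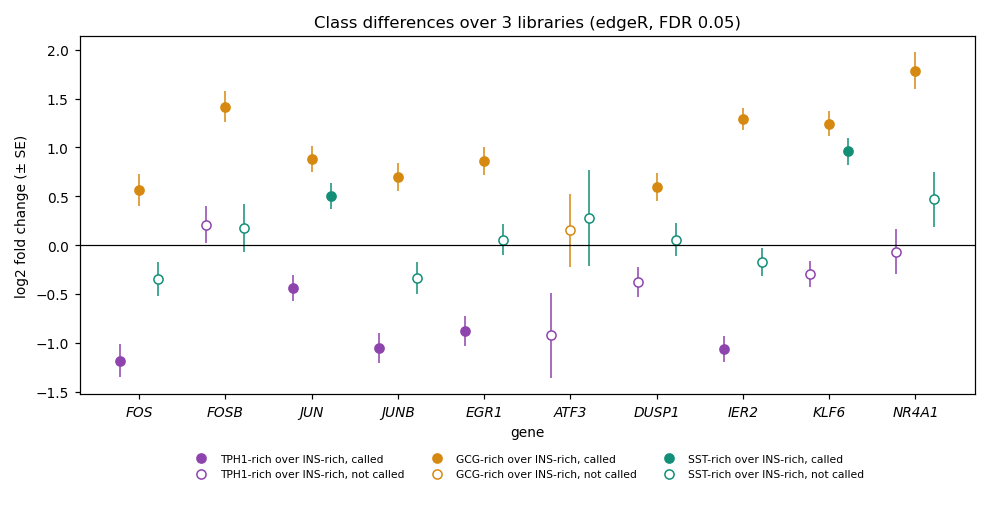
Log2 fold change (vertical axis, ± SE) of each gene in TPH1-rich, GCG-rich and SST-rich over INS-rich cells from the edgeR fit; filled points were called and open points were not. The GCG-rich points of 9 genes are called above 0, and the 5 called TPH1-rich points lie below 0.

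TPH1-rich cells held lower levels of 5 members than INS-rich cells: FOS, JUN, JUNB, EGR1 and IER2. With 5 of 10 called lower and 0 higher, the background was 17% of all genes called lower, 17.4% higher and 34.4% in either direction. The members' median log2 fold change was -0.66, against 0.01 over all genes. FOS had 59.7, 112 and 57.7 CPM in TPH1-rich cells (CD49a-positive, CD49a-negative and unsorted), against 178, 138 and 146 CPM in INS-rich cells, and fell by 1.19 ± 0.17 on the log2 scale (edgeR adjusted p = 4.9e-05). The classes did not overlap, and the CD49a-negative library had the highest TPH1-rich value. JUNB, at 28.9, 64.4 and 27.4 CPM in TPH1-rich cells, fell by 1.06 ± 0.16, and IER2, at 21.5, 33.7 and 14.8 CPM, fell by 1.06 ± 0.13. EGR1 had 53.5, 79.2 and 39.0 CPM in TPH1-rich cells and fell by 0.88 ± 0.15 (edgeR adjusted p = 0.00030). JUN had 86.8, 126 and 84.6 CPM in TPH1-rich cells, with the CD49a-negative value inside the INS-rich range, and fell by 0.44 ± 0.13 (edgeR adjusted p = 0.018). The JUN call was lost without the CD49a-positive library (log2 fold change -0.37, edgeR adjusted p = 0.088) and without the unsorted library (-0.24, adjusted p = 0.42). DUSP1 (log2 fold change -0.38, adjusted p = 0.071), KLF6 (-0.30, adjusted p = 0.099), ATF3 (-0.93, adjusted p = 0.12), NR4A1 (-0.07, adjusted p = 0.85) and FOSB (0.21, adjusted p = 0.43) were not called by the same edgeR test. Without the CD49a-negative library, DUSP1 (log2 fold change -0.71, edgeR adjusted p = 0.0016) and ATF3 (-1.17, adjusted p = 0.031) were called lower as well, and without the CD49a-positive library KLF6 was (-0.45, adjusted p = 0.010).

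Over INS-rich cells, KLF6 and JUN were called in SST-rich cells. KLF6 had 122, 112 and 69.2 CPM in SST-rich cells (CD49a-positive, CD49a-negative and unsorted), against 51.6, 43.6 and 42.3 CPM in INS-rich cells, without overlap, and rose by 0.96 ± 0.14 (edgeR adjusted p = 8.3e-05). JUN had 191, 197 and 182 CPM in SST-rich cells, against 118, 104 and 136 CPM in INS-rich cells, and rose by 0.50 ± 0.14 (edgeR adjusted p = 0.014). The JUN call was lost with the class cuts halved (log2 fold change 0.42, edgeR adjusted p = 0.059) and with them doubled (0.26, adjusted p = 0.13). These were the 2 of 10 members called, both higher, where 9.81% of all genes were called higher, 11.8% lower and 21.6% in either direction, so the share of members called was near that of all genes. The members' median log2 fold change was 0.12, against -0.02 over all genes. Both the CD49a-negative and the unsorted library decided calls here. Without the CD49a-negative library FOS (log2 fold change -0.50, edgeR adjusted p = 0.0072) and JUNB (-0.56, adjusted p = 0.0046) were called lower. Without the unsorted library ATF3 (1.30, adjusted p = 0.046) and NR4A1 (0.78, adjusted p = 0.0499) were called higher.

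The balance of the AP-1 subunits differed between classes. The ratio of FOS to JUN UMIs was 0.688, 0.888 and 0.683 in TPH1-rich, 1.12, 0.968 and 1.03 in GCG-rich and 0.764, 0.796 and 0.599 in SST-rich cells of the CD49a-positive, CD49a-negative and unsorted libraries, against 1.51, 1.33 and 1.08 in INS-rich cells. The INS-rich ratio was the highest of the 4 classes in each library. The highest unsorted INS-rich cell held 758 of the 5436 JUN UMIs that enter the unsorted INS-rich ratio. The comparison of the ratios was added after the values were seen, and no test of it was made.

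Related genes were read from lists of other immediate early genes, feedback genes, cAMP and calcium response genes, upstream kinases and factors, heat shock genes and integrated stress response genes. Of 19 other immediate early genes tested, 8 were called higher and 5 lower in GCG-rich cells, 2 and 4 in SST-rich cells, and 2 and 8 in TPH1-rich cells, each over INS-rich cells in the edgeR fit. KLF4, a Kruppel-like factor, had 12.2, 13.9 and 13.0 CPM in GCG-rich cells, against 1.246, 3.01 and 1.77 CPM in INS-rich cells, and rose by 2.78 ± 0.18. NR4A3, a relative of NR4A1, rose by 1.52 in GCG-rich cells, and FOSL2, a further AP-1 subunit, by 1.51 there, by 1.37 in SST-rich and by 1.22 in TPH1-rich cells. The family did not move as one. NR4A2 fell by 0.84 in GCG-rich and by 1.41 in SST-rich cells, and IER3, a survival gene, fell by 0.73 in GCG-rich, by 2.14 in SST-rich and by 1.71 in TPH1-rich cells. Among genes of neuronal activity, ARC fell by 1.94 and NPAS4 by 2.20 in TPH1-rich cells, where the INS-rich levels were low too, at most 3.44 CPM. MYC was at 0 UMIs in GCG-rich cells of all libraries and at most 0.257 CPM in INS-rich cells.

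Feedback genes, which shorten the response by removing phosphate or destroying mRNA, were split in GCG-rich cells and lower in TPH1-rich cells. Of 15 tested, 6 were called higher and 5 lower in GCG-rich, 3 and 3 in SST-rich, and 0 and 9 in TPH1-rich cells. Among the kinase phosphatases, DUSP5 rose by 1.24 and DUSP4 by 1.21 in GCG-rich cells, whereas DUSP6 fell by 1.66 there, with 3.98, 4.61 and 4.53 CPM in GCG-rich and 14.04, 11.2 and 14.7 CPM in INS-rich cells. In TPH1-rich cells the mRNA decay genes fell, ZFP36L1 by 1.47 and ZFP36L2 by 1.10, and the stress gene GADD45B fell by 1.42. Of 7 cAMP and calcium response genes, 3 were called higher and 1 lower in GCG-rich, 1 and 0 in SST-rich, and 4 and 1 in TPH1-rich cells. RGS2, which restrains G protein signals, rose by 1.03 in TPH1-rich cells (33.0, 42.4 and 37.2 CPM, against 17.0, 16.4 and 16.4 CPM in INS-rich cells) and fell by 0.65 in GCG-rich cells. In TPH1-rich cells this list thus had more genes called higher than lower, whereas the members had 0 called higher.

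Of 12 upstream kinases and factors, 3 were called higher and 1 lower in GCG-rich, 2 and 0 in SST-rich, and 3 and 2 in TPH1-rich cells. RPS6KA3, a kinase of the ERK pathway, had 778, 642 and 618 CPM in GCG-rich and 318, 344 and 306 CPM in INS-rich cells, and rose by 1.03 ± 0.12. In TPH1-rich cells it fell by 0.94. ELK3, a partner of serum response factor, rose by 2.22 in TPH1-rich cells, by 1.17 in SST-rich cells and by 0.70 in GCG-rich cells. Of 13 heat shock genes, 3 were called higher and 0 lower in GCG-rich, 1 and 0 in SST-rich, and 1 and 3 in TPH1-rich cells. HSPB1, a small heat shock protein, rose by 1.93 in GCG-rich and by 2.03 in SST-rich cells. Of 7 integrated stress response genes, 5 were called lower in GCG-rich, 2 in SST-rich and 3 in TPH1-rich cells, and 0 higher in any. ATF4, the central factor of that response, fell by 0.31 in GCG-rich, by 0.30 in SST-rich and by 0.66 in TPH1-rich cells. Of all genes, 33% were called in GCG-rich, 21.6% in SST-rich and 34.4% in TPH1-rich cells, in either direction. In GCG-rich and SST-rich cells the upstream and heat shock lists were near or below these shares. In TPH1-rich cells the heat shock list was below its share too, with 4 of 13 called. Of the upstream list 5 of 12 were called there. All counts over lists are descriptions, since the lists and the members were chosen with results of these data known.

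Per cell, a larger share of GCG-rich than of INS-rich cells passed a threshold on member UMIs. Each cell was thinned to 10000 UMIs, and a cell was counted as responding at 15 or more member UMIs, which is 3 times the mean of the library medians, from at least 3 members. Thinning left out 330, 144 and 180 shallower cells. Of GCG-rich cells, 23.7% (47 of 198, CD49a-positive), 30.5% (130 of 426, CD49a-negative) and 20.3% (72 of 354, unsorted) responded, against 7.34% (89 of 1212), 5.54% (17 of 307) and 4.99% (31 of 621) of INS-rich cells. The GCG-rich minus INS-rich difference averaged 18.9 ± 5.28 percentage points (SD, n = 3 libraries) and was above 0 in 3 of 3 libraries. Of SST-rich cells 15.9%, 11.2% and 8.33% responded, from 44, 98 and 72 cells, 5.86 ± 2.62 points above INS-rich cells (SD, n = 3). That direction turned to -7.68 points when a cell was counted as responding at 1 or more FOS UMIs. With barcodes kept at 500 or more genes and up to 30% mitochondrial UMIs the SST-rich shares were 6.52%, 17.3% and 5.33%, against 7.31%, 7.03% and 4.44% of INS-rich cells, a mean difference of 3.47 points with the CD49a-positive library below 0. Of TPH1-rich cells 5.06%, 5.74% and 2.41% responded, from 79, 383 and 374 cells, and the difference from INS-rich cells, -1.55 ± 1.53 points (SD, n = 3), was about as large as its spread. An exact permutation test over 3 pairs of libraries cannot give a two-sided p below 0.25, so none was run.

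**Figure D3:**
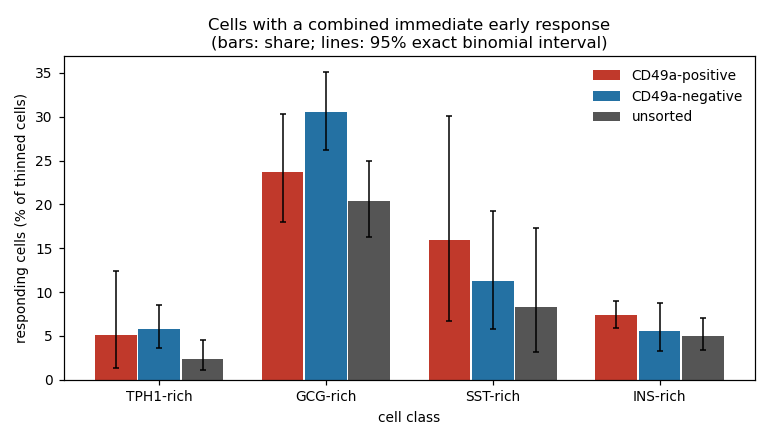
Share of thinned cells that responded (vertical axis, percent; 15 or more UMIs of the 10 genes in 10000, from at least 3 genes), by class and library; lines are 95% exact binomial (Clopper-Pearson) intervals. GCG-rich bars stand between 20.3% and 30.5%, and INS-rich bars between 4.99% and 7.34%.

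Below that threshold the classes also differed. The median GCG-rich cell held 9, 10 and 9 member UMIs of 10000 in the CD49a-positive, CD49a-negative and unsorted libraries, against 4.5, 4 and 4 in INS-rich cells. The median TPH1-rich cell held 2, 3 and 1. No member UMI at all was found in 31.6%, 11.2% and 33.4% of TPH1-rich cells, against 7.76%, 10.7% and 10.3% of INS-rich cells. Unthinned, the median member level was 869, 1003 and 883 CPM in GCG-rich and 418, 329 and 384 CPM in INS-rich cells. A FOS UMI was found in 74.7%, 72.8% and 74.0% of thinned GCG-rich cells, against 62.8%, 52.8% and 58.5% of INS-rich cells (unthinned 87.3%, 88.6% and 86.7%, against 76.5%, 70.9% and 77.7%). NR4A1 was found in 17.7%, 18.3% and 11.6% of thinned GCG-rich cells, against 3.47%, 4.89% and 4.67% of INS-rich cells. No class is known to lack these genes, so no share of background was at hand. GCG in TPH1-rich cells stood at 1.19% to 2.27% of its level in GCG-rich cells. INS in TPH1-rich cells stood at 5.97% to 10.5% of its level in INS-rich cells. These shares do not separate free RNA from a cell's own, since the class rule admits INS and GCG below their cuts. The median TPH1-rich cell held 5860, 1106 and 1247 CPM of INS in the CD49a-positive, CD49a-negative and unsorted libraries. Over the summed cells INS stood at 9108, 6585 and 5759 CPM.

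The highest cells lay outside the GCG-rich class. The maximum was 252 member UMIs of 10000 in a CD49a-positive INS-rich cell, with 192 in an unsorted TPH1-rich and 186 in an unsorted INS-rich cell. The highest GCG-rich cells held 63, 81 and 32. At 5 times the mean library median instead of 3, the GCG-rich minus INS-rich difference was 3.68 points.

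Responding cells were set beside the other thinned cells of their class and library in 12 groups. The summed other immediate early genes, which did not enter the rule, were higher in responding cells in 12 of 12 groups, with a median ratio of 2.07. Integrated stress response genes were higher in 11 and heat shock genes in 10 of 12, with median ratios of 1.22 and 1.11. The mitochondrial share was lower in 11 of 12 groups (median ratio 0.908), and the depth was higher in 6 and lower in 6. In CD49a-positive INS-rich cells the other immediate early genes summed to 1445 CPM in 89 responding cells and 742 CPM in 1123 others, and mitochondrial shares were 7.55% and 8.14%. That sum rests mostly on JUND, at 643 CPM over all CD49a-positive INS-rich cells, with BTG2 next at 84.7 CPM. The genes of the list were not read singly in responding cells. Groups of responding cells held as few as 4 cells. The part of RNA quality and stress in the response was not tested.

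Members rose and fell together across cells, weakly. Over 11 library and class groups of at least 72 thinned cells, the mean Pearson r of the 45 pairs ranged from 0.04 to 0.39 with a median of 0.16, and 17 pairs were over 0.2. FOS and EGR1 were the closest pair (0.39), followed by FOS with JUNB (0.32), FOS with IER2 (0.30) and FOS with JUN (0.29), each positive in all 11 groups. JUN paired next best with DUSP1 (0.28) and KLF6 (0.27), whereas FOS and KLF6 reached 0.10 and JUNB and KLF6 0.04. ATF3 was nearest to JUN (0.24) and KLF6 (0.21) and far from FOS (0.09). The cells of a group share a library and a fixed depth, the counts are sparse, and these values are descriptions.

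**Figure D4:**
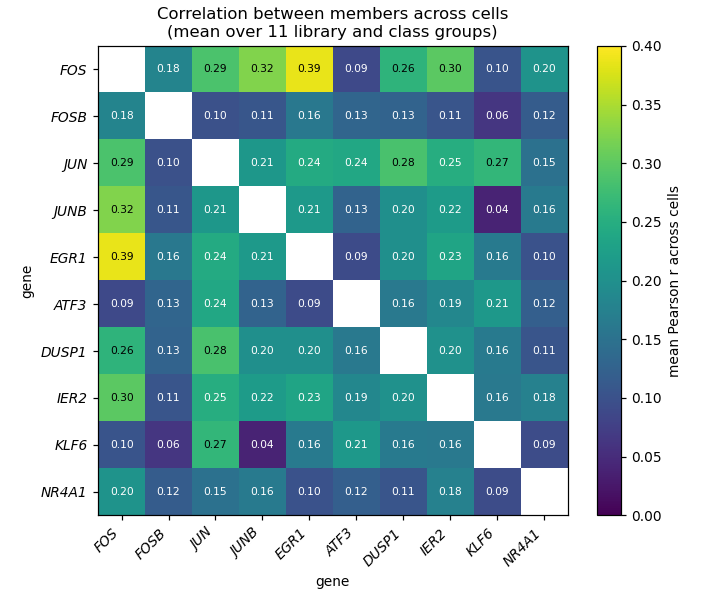
Pearson correlation across cells between each pair of genes (colour and printed value; log of 1 plus the thinned count), averaged over 11 groups of a library and a class. FOS with EGR1 is the highest pair at 0.39 and JUNB with KLF6 the lowest at 0.04.

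Of 12012 genes compared, those most like the summed members across cells of the same 11 groups were BTG2 (mean r 0.35), an antiproliferative immediate early gene, JUND (0.32), the AP-1 subunit that is present without a stimulus, and the replacement histone gene H3F3B (0.31). VIM (0.26), encoding vimentin, BTG1 (0.23), a relative of BTG2, and NPW (0.22), encoding neuropeptide W, came next. RHOB, RPL41, ACTG1, SQSTM1, ACTB, GABARAP, FTL, FTH1 and RPS27 followed, at 0.22 to 0.20, several of them cytoskeletal, ribosomal or ferritin genes. The median over all genes was 0.004. BTG2 also followed the members between classes, with 171, 156 and 139 CPM in GCG-rich, 37.0, 55.7 and 34.3 CPM in TPH1-rich, and 84.7, 64.9 and 69.0 CPM in INS-rich cells.

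Between the libraries, the CD49a-negative cells had the highest summed level, at 838 CPM (95% interval 832 to 844), against 662 CPM (657 to 667) in CD49a-positive and 635 CPM (630.2 to 639.7) in unsorted cells. The share of responding cells was 9.06% (187 of 2064) in CD49a-positive, 14.4% (263 of 1832) in CD49a-negative and 7.95% (165 of 2076) in unsorted cells. CD49a-positive minus CD49a-negative was -5.30 points (95% counting interval -7.37 to -3.24), CD49a-positive minus unsorted 1.11 points (-0.62 to 2.85), and CD49a-negative minus unsorted 6.41 points (4.399 to 8.44). The libraries held the classes in different proportions, with 213 GCG-rich of 2394 kept CD49a-positive cells against 437 of 1976 CD49a-negative cells, so the comparison was repeated within classes.

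Within classes the libraries did not keep one order. Differences were read against a rule of size, at least 2-fold with 10 CPM added to both sides, for genes with 50 CPM and 50 UMIs in the higher library; folds given are of the CPM themselves. CD49a-positive over CD49a-negative, the summed level was 0.650-fold in TPH1-rich (95% counting interval 0.611 to 0.692), 0.908-fold in GCG-rich, 0.872-fold in SST-rich and 1.10-fold in INS-rich cells (1.08 to 1.13). CD49a-positive over unsorted it was 1.17-fold, 1.13-fold, 1.27-fold and 1.06-fold in the same order of classes. With barcodes under 2000 genes or over 10% mitochondrial removed, the direction of CD49a-positive over unsorted turned in TPH1-rich cells (log2 ratio -0.021) and over all kept cells (-0.0086, against 0.06 with the filter used here). CD49a-negative over unsorted it was 1.80-fold in TPH1-rich (1.73 to 1.86), 1.24-fold in GCG-rich, 1.46-fold in SST-rich and 0.963-fold in INS-rich cells (0.939 to 0.987). In both comparisons with the CD49a-negative library the TPH1-rich cells stood farthest from 1.

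In TPH1-rich cells the CD49a-negative level was the higher one over the unsorted library in 9 of the 10 members. The exception was ATF3, at 4.14 CPM in CD49a-negative against 7.47 CPM in unsorted cells (0.554-fold, 95% counting interval 0.399 to 0.764). JUNB had 64.4 CPM in CD49a-negative cells against 27.4 CPM in unsorted cells, a fold of 2.36 (95% counting interval 2.09 to 2.66). EGR1 had 79.2 CPM in CD49a-negative against 39.0 CPM in unsorted cells (2.03-fold), and FOS 112 CPM in CD49a-negative against 57.7 CPM in unsorted cells (1.94-fold). DUSP1 had 66.1 CPM in CD49a-negative against 34.4 CPM in unsorted cells (1.92-fold), and JUN 126 CPM in CD49a-negative against 84.6 CPM in unsorted cells (1.49-fold). JUNB, EGR1 and DUSP1 were eligible for the rule of size through the CD49a-negative library, where they were high. With 10 CPM added, 0 of the 5 eligible members passed 2-fold, where 0.0222% of 4513 eligible genes (1 gene, NPW) did. In CD49a-positive over CD49a-negative TPH1-rich cells, DUSP1 had 25.2 CPM in CD49a-positive against 66.1 CPM in CD49a-negative cells (0.381-fold), past 2-fold and eligible through the CD49a-negative library, where it was high. Of all eligible genes 2.56% were past 2-fold there. KLF6 went the other way there, with 62.2 CPM in CD49a-positive, 40.6 in CD49a-negative and 30.5 in unsorted cells. In INS-rich cells FOS had 178, 138 and 146 CPM and JUN 118, 104 and 136 CPM in the CD49a-positive, CD49a-negative and unsorted libraries. Of the eligible members, 0 were past 2-fold in the other comparisons. In the order GCG-rich, SST-rich and INS-rich, the share of all eligible genes past it was 0.122%, 1% and 0.125% in CD49a-positive over CD49a-negative and 0.0509%, 0.14% and 0.0253% in CD49a-negative over unsorted cells. In CD49a-positive over unsorted cells it was 0.356% in TPH1-rich, 0.0251% in GCG-rich, 0.437% in SST-rich and 0.0256% in INS-rich cells.

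**Figure D5:**
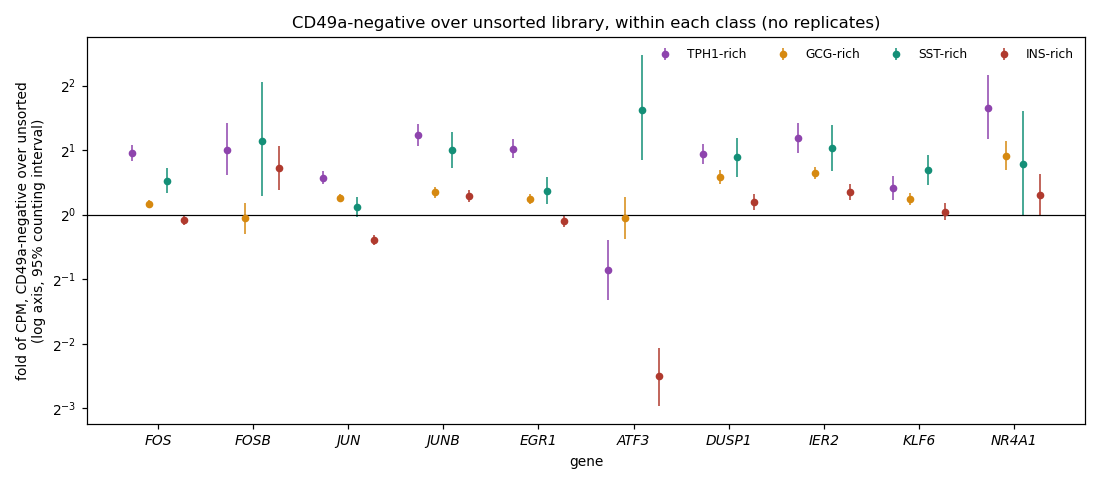
Fold of CPM in the CD49a-negative over the unsorted library (vertical axis, log scale) for each gene within 4 classes; lines are 95% counting intervals, and there are no replicates. FOS, JUN, JUNB, EGR1 and DUSP1 lie above 1 in TPH1-rich cells, between 1.49 and 2.36, and FOS, JUN and EGR1 lie below 1 in INS-rich cells. ATF3 lies below 1 in both, at 0.554 in TPH1-rich and 0.177 in INS-rich cells, the lowest point drawn.

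In TPH1-rich cells, alpha cell markers and members were both highest in the CD49a-negative library. Between CD49a-positive and unsorted cells the markers and the members went opposite ways. The members summed to 356, 547 and 305 CPM in CD49a-positive, CD49a-negative and unsorted TPH1-rich cells. The 6 markers, all detected, summed to 6570.4 CPM in CD49a-positive, 10003 in CD49a-negative and 6720.0 in unsorted TPH1-rich cells, against 111395 to 128971 CPM in GCG-rich cells. NPW was found in 30.4%, 60.6% and 21.7% of thinned TPH1-rich cells in the same libraries. It was also higher in CD49a-negative than in unsorted GCG-rich cells (394 against 93.1 CPM) and INS-rich cells (192 against 63.0 CPM). Thinned TPH1-rich cells without NPW held 211, 410 and 285 member CPM in the CD49a-positive, CD49a-negative and unsorted libraries. Those with NPW held 571, 580 and 310 member CPM. NPW was named here after its values were seen. The part of alpha-like cells in the difference was not tested.

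Responding shares within classes had wide intervals and did not follow the order of the summed levels. In both comparisons with the CD49a-negative library the largest difference was in GCG-rich cells. CD49a-negative minus unsorted was 10.2 points in GCG-rich cells (95% counting interval 3.87 to 16.3), 3.34 points in TPH1-rich cells (0.352 to 6.45), 2.89 points in SST-rich cells (-7.59 to 12.4) and 0.546 points in INS-rich cells (-2.50 to 4.09). CD49a-positive minus CD49a-negative was -6.78 points in GCG-rich cells (-14.1 to 1.08), -0.681 points in TPH1-rich cells (-5.31 to 7.01), 4.68 points in SST-rich cells (-7.54 to 19.9) and 1.81 points in INS-rich cells (-1.67 to 4.599). CD49a-positive minus unsorted was 3.40 points in GCG-rich cells (-3.95 to 11.1), 2.66 points in TPH1-rich cells (-1.57 to 10.2), 7.58 points in SST-rich cells (-5.29 to 22.7) and 2.35 points in INS-rich cells (-0.109 to 4.61). Of these 12 intervals only those of CD49a-negative minus unsorted in GCG-rich and TPH1-rich cells left out 0.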

How the data were processed

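The authors deposited whole UMI counts for each gene in each barcode; the submitters' processing notes name Cell Ranger 7.1.0 and GRCh38. Members, lists and class cuts were chosen with earlier results of these data known. Barcodes under 1000 genes or over 20% mitochondrial UMIs were removed. Cells over several class cuts (252, 284 and 338 in the CD49a-positive, CD49a-negative and unsorted libraries) or none (342, 390 and 388) stayed out of the classes; no doublet caller was run. Within 20% below the TPH1 cut lay 33, 65 and 73 cells. UMIs were summed per library and class, and 12 sums entered edgeR 4.0.16 (quasi-likelihood test, TMM, R 4.3.3), tested on simulated data. DESeq2 1.42.0 was an alternative. Cells were thinned with numpy 2.4.6 (seed 0); intervals came from scipy 1.17.1 and cover counting error only. The text names all 10 members, of each other list at most 4 called genes per direction by largest log2 fold change, and the 15 genes most like the members. Gene positions are from GENCODE release 29, which may not be the annotation behind the counts. With 1 library per group, libraries were compared by a rule of size with no test.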

Additional observations from a re-analysis of the deposited data

Results flagged for a closer look

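Between pairs of libraries, the summed level of the 10 genes differed in direction from class to class, and these differences were not tested, since each group is a single library. In CD49a-positive over CD49a-negative cells it was 1.10-fold in INS-rich cells, but 0.650-fold in TPH1-rich, 0.908-fold in GCG-rich and 0.872-fold in SST-rich cells. In CD49a-negative over unsorted cells it was 1.80-fold in TPH1-rich, 1.24-fold in GCG-rich and 1.46-fold in SST-rich cells, but 0.963-fold in INS-rich cells.

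Barcodes that the filter removed also held member UMIs, in part above the level of the same kind of barcode in the unsorted library. Among barcodes with under 1000 genes the summed level was 394 CPM in the CD49a-positive library (809 UMIs, 1988 barcodes) and 175 CPM in the CD49a-negative library (412 barcodes), against 214 CPM in the unsorted library (162 UMIs), so only the CD49a-positive value lay above the unsorted one. Among barcodes over 20% mitochondrial with at least 1000 genes it was 332 CPM in the CD49a-positive and 439 CPM in the CD49a-negative library, against 270.0 CPM in the unsorted library. Counted over UMIs that are not mitochondrial, barcodes with under 1000 genes held 549, 549 and 618 CPM in the CD49a-positive, CD49a-negative and unsorted libraries, so there the unsorted value was the highest.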

How the results depend on the processing

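The GCG-rich over INS-rich calls were the steadiest: between 6 and 9 of 10 members were called higher and 0 lower under the 15 alternatives, which covered another tool (DESeq2), filters, class cuts, thinning, totals without hormones and leaving out each library (7 to 9). The lowest count, 6, came without the library term, where FOS, JUNB and DUSP1 were not called. In TPH1-rich over INS-rich cells, 8 members were called lower with no filter on low genes, and 4 to 7 on leaving out a library, 7 of them without the CD49a-negative library. In SST-rich over INS-rich cells, 4 members were called with no filter on low genes, 1 with class cuts either halved or doubled, where JUN was not called, and 2 to 4 on leaving out a library. No paired analysis was possible because each group has 1 library and the labels give no replicate numbers, as far as comparisons between libraries go; the class contrasts were paired within libraries by the library term.

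Summed levels over all kept cells moved by more than their counting error under several settings. On the log2 scale, CD49a-positive over CD49a-negative was -0.34, and -0.32 with a pseudocount of 50 CPM, -0.26 with median-of-ratios size factors, -0.36 with a stricter filter (barcodes under 2000 genes or over 10% mitochondrial removed), and -0.32 without cells poor in MALAT1, a nuclear RNA. CD49a-positive over unsorted was 0.06, and 0.10 with those size factors, and it reversed to -0.0086 with the stricter filter, under which the TPH1-rich value reversed to -0.021. CD49a-negative over unsorted was 0.40, and 0.37 with 50 CPM, 0.36 with those size factors, 0.37 with each cell weighted equally, 0.35 with the stricter filter and 0.38 without the MALAT1-poor cells. The MALAT1, thinning and hormone-free settings, and doubled cuts for library ratios, were chosen after seeing the data.

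Responding shares depended on the rule. At 2 times the mean library median the differences were -6.04 points (TPH1-rich minus INS-rich), 31.9 points (GCG-rich), -8.75 points (CD49a-positive minus CD49a-negative) and 9.98 points (CD49a-negative minus unsorted). At 5 times they were 3.68 points (GCG-rich), 1.89 points (SST-rich), -1.90 points (CD49a-positive minus CD49a-negative) and 1.77 points (CD49a-negative minus unsorted). With at least 7 of 10 members found they were 11.9 (GCG-rich), 1.21 (SST-rich) and 3.93 points (CD49a-negative minus unsorted). With at least 1 FOS UMI as the rule they were -28.2 points for TPH1-rich cells and 8.39 points for CD49a-positive minus unsorted, and SST-rich minus INS-rich cells (-7.68) and CD49a-positive minus CD49a-negative (3.71) reversed. The cause was not tested.

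Sign changes among single genes came in members that were not called in that contrast. NR4A1 in TPH1-rich cells (log2 fold change -0.07) reached 0.040 without the library term, 0.17 and 0.025 with halved and doubled cuts, 0.12 without the deepest 10% of barcodes, 0.047 without MALAT1-poor cells, and -0.44 to 0.41 on leaving out a library; FOSB there reached -0.0090 with each cell placed by its highest hormone. ATF3 in GCG-rich cells reached -0.19 with doubled cuts, -0.089 with the stricter filter, and -0.17 to 0.94 on leaving out a library. In SST-rich cells, leaving out a library gave -0.11 to 0.28 for FOSB, -0.080 to 0.16 for EGR1, -0.78 to 1.30 for ATF3, -0.11 to 0.22 for DUSP1 and -0.34 to 0.030 for IER2. With thinned cells FOSB reached -0.0093, ATF3 -0.47, DUSP1 -0.039 and NR4A1 -0.21 in SST-rich cells. With cells placed by their highest hormone JUNB reached 0.00048, ATF3 -0.33 and IER2 0.13, and with halved and doubled cuts ATF3 reached -0.24 and -0.67.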

Other observations

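Cells over the cuts of both INS and GCG, which stayed out of the classes, held 890.5, 993 and 856 CPM of the 10 genes in the CD49a-positive (88 cells), CD49a-negative (88) and unsorted (111) libraries, between the INS-rich and GCG-rich sums of each library. Cells over both INS and TPH1 held 524, 526 and 419 CPM in 63, 59 and 92 cells. In the CD49a-positive and unsorted libraries these lay between the TPH1-rich and INS-rich sums, and in the CD49a-negative library below both. Such cells were deep, with a median of 78456, 67180 and 80775 UMIs for INS and GCG. Whether such barcodes held more than 1 cell was not tested.

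Cells over no cut held a responding share of 4.98% (15 of 301) in the CD49a-positive, 13.1% (45 of 344) in the CD49a-negative and 7.12% (24 of 337) in the unsorted library.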
